A study of Mus musculus with 8 samples.

Results

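The genes described here are 10 markers of the somatic cells of the testis, examined in open chromatin data from male germ cells. *Sox9*, *Amh*, *Wt1*, *Gata4* and *Cldn11* mark Sertoli cells, and *Cyp17a1*, *Cyp11a1*, *Star*, *Insl3* and *Nr5a1* mark Leydig cells. They were taken by name, with no measured value in the rule but with earlier results of these data known, from 21938 protein-coding genes of the mouse annotation, 20807 of them autosomal, and all 10 are autosomal. For each gene every peak in the gene body or in the 5000 bp upstream was collected. The question was whether chromatin of somatic genes was open in these cells, and whether this differed between genotypes.

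ATAC-seq, in which a transposase inserts sequencing adapters into accessible DNA, was carried out on pachytene spermatocytes, the meiotic germ cells in which homologous autosomes are fully synapsed. There were 4 *Arid1a* WT and 4 *Arid1a* cKO libraries. Per the study's methods, cKO males were homozygous for a floxed *Arid1a* allele and carried the *Stra8-Cre* transgene, which is active in spermatogonia. WT males carried 1 or 2 floxed alleles, with no Cre in their stated genotype, and the floxed line is kept on a CD1 background. *Arid1a* encodes a subunit of BAF, a chromatin remodeling complex of the SWI/SNF family. Deletion was incomplete in the study's account, so the cKO cells included some that kept ARID1A, while Sertoli and Leydig cells lie outside the germ line that the Cre targets. The cells came from testes of several adult males, pooled and separated by size in a Sta-Put gradient, which enriches pachytene spermatocytes but does not exclude other testis cells.

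Sertoli cells sit in the seminiferous tubule, nurse the germ cells and seal the blood-testis barrier with tight junctions. Leydig cells lie between the tubules and make testosterone from cholesterol. Both are specified by a small set of transcription factors in the fetal gonad, and their marker genes are used to look for somatic cells in germ cell preparations.

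The deposited data were 1 peak list per genotype, the intersection of the peaks of its libraries. Replicates therefore could not be compared, and no test between genotypes could be made. The WT list held 19309 peaks and the cKO list held 30244. Fold enrichment is the ratio of the fragment pileup at a peak's summit to the background of 1 library, with 1 added to each. That background stood at 4.33 fragments per base for WT and 5.11 for cKO, and the weakest listed peaks reached pileups of 13 and 14 fragments, respectively. A weaker site, or a site not shared between libraries, is not listed, so the absence of a peak is not the absence of open chromatin. Each peak fills 1 or more rows, and 3 rows are what overlap with 1 peak in each of the 3 other libraries of the genotype gives. Rows are not a count of libraries, however, as a cKO peak at *Nr5a1* filled 4. Peaks are called common where a WT and a cKO peak overlapped by 1 bp or more. WT peaks without such an overlap are called lost, and cKO peaks without it gained. These words describe membership of lists and not a tested change.

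Of the 10 marker genes, 4 had a peak in the WT list (*Amh*, *Gata4*, *Star* and *Nr5a1*) and 5 had a peak in the cKO list (*Amh*, *Wt1*, *Cldn11*, *Star* and *Nr5a1*). Among all autosomal protein-coding genes, 58.1% had a WT peak in the same kind of window and 66.0% had a cKO peak. *Amh*, *Star* and *Nr5a1* had peaks in both lists. *Sox9*, *Cyp17a1*, *Cyp11a1* and *Insl3* had none in either. The genes held 10 WT peaks and 12 cKO peaks. All but the broad *Amh* peak were weak in the WT list: 9 of the 10 lay below the list's median fold of 5.25. In the cKO list 10 of the 12 lay below its median of 4.91. The exceptions there were the *Amh* peak and a peak at an internal start of *Nr5a1*.

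**Figure D1:**
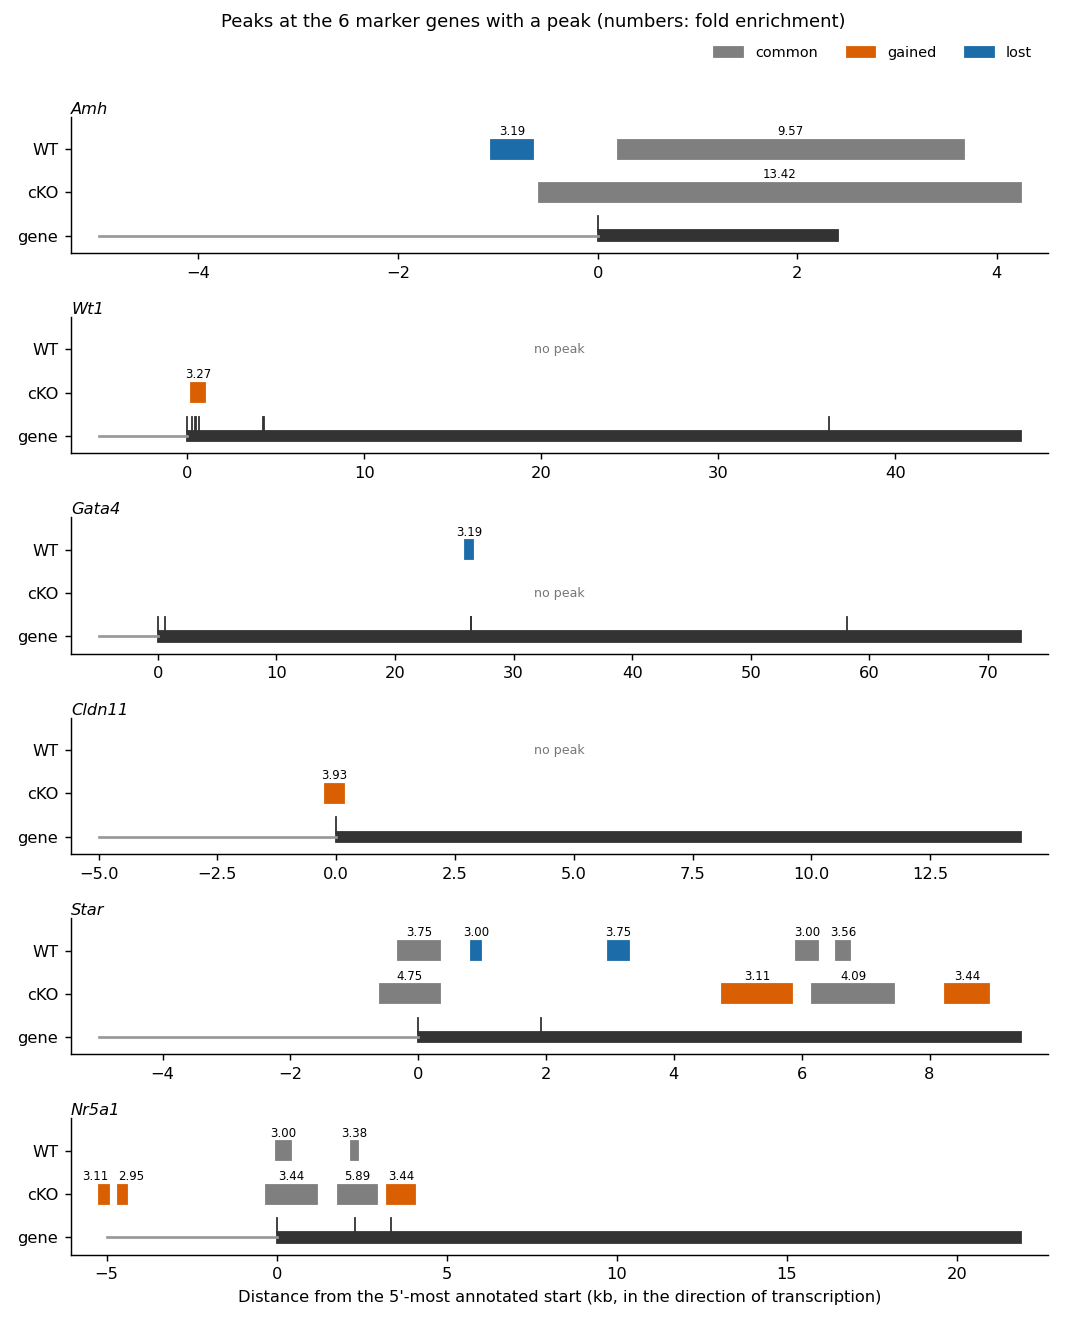
Peaks at the 6 marker genes that had any, drawn to scale by distance in kb from the 5′-most annotated start, with the WT list above the cKO list. The dark bar is the gene body, the grey line the 5000 bp upstream, the upright ticks are annotated starts, and the number over each box is its fold enrichment. The broad *Amh* peak is present in both lists, *Wt1* and *Cldn11* have a peak in the cKO list alone, *Gata4* has a peak in the WT list alone, and *Star* and *Nr5a1* carry several.

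The transcription factors of the Sertoli group come first. *Sox9*, which directs the bipotential gonad towards Sertoli cells, lies on the forward strand at chr11:112782224-112787760 (mm10, as are all positions below) and had no peak in its window in either list. The nearest listed peak was 63533 bp upstream in WT, with a fold of 3.94 and on 1 row, and 63668 bp upstream in cKO, with a fold of 3.76 and on 2 rows. The *Sox9* promoter is CpG-rich (CpG observed/expected 0.80 within 500 bp of its start), a class in which 82.0% of genes had a WT promoter peak and 87.6% a cKO promoter peak. Here a promoter is the stretch between 1000 bp before and 100 bp after any annotated start of the gene.

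*Wt1*, a zinc-finger factor needed to keep Sertoli cell identity, lies on the forward strand at chr2:105126529-105173616. No WT peak lay in its window. In the cKO list it had 1 peak at chr2:105126765-105127512, 748 bp wide, with a fold of 3.27, a summit pileup of 19 fragments and 2 rows. This gained peak covered 4 of the 8 annotated *Wt1* starts and was 90.6% exonic, and it also reached the promoter of the antisense gene *Wt1os*. The nearest WT peak was 109435 bp away. The peak was CpG-rich, with a GC content of 72.3% and a CpG observed/expected of 0.93. Its fold was low for the cKO list, where 17.4% of peaks had a lower one.

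*Gata4*, a zinc-finger factor of both Sertoli and Leydig cells, lies on the reverse strand at chr14:63198922-63271692 and showed the opposite arrangement. Its peak was in the WT list, at chr14:63245128-63245770, 643 bp wide, with a fold of 3.19, a pileup of 16 fragments and 2 rows. The peak began 25922 bp downstream of the 5′-most start and covered 2 internal starts. No cKO peak lay within 66527 bp, so it counted as lost. Only 6.72% of WT peaks had a lower fold. The 5′-most start of *Gata4* had no peak in either list.

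*Amh*, the hormone with which fetal Sertoli cells make the female ducts regress, had the strongest peaks of the 10 genes. It is a short gene on the forward strand at chr10:80805243-80807648, packed between *Sf3a2* and *Jsrp1*. The broad WT peak at chr10:80805443-80808915 was 3473 bp wide, with a fold of 9.57, a pileup of 50 fragments and 3 rows. It began 200 bp downstream of the *Amh* start and ran past the end of the gene into *Jsrp1*. In the cKO list the peak at chr10:80804654-80809483 was 4830 bp wide, with a fold of 13.4, a pileup of 81 fragments and 3 rows, and it covered the start. Both peaks were wider than 98.1% of their lists, and their folds exceeded those of 77.7% of WT peaks and 83.0% of cKO peaks. Because each ran through *Amh* into its neighbor, the lists do not tell whether the open chromatin belonged to *Amh*.

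A second WT peak lay in the *Amh* promoter, within the body of *Sf3a2*, at chr10:80804177-80804596. It was 420 bp wide, with a fold of 3.19, a pileup of 16 fragments and 1 row. It counted as lost, but it ended only 57 bp short of the broad cKO peak. Of its sampled 50-mers 86.7% occurred once in the genome, the lowest share among the 22 peaks.

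*Cldn11* encodes a claudin of the tight junctions between Sertoli cells and lies on the forward strand at chr3:31149920-31164324. It had no WT peak. A gained cKO peak sat over its start at chr3:31149681-31150093, 413 bp wide, with a fold of 3.93, a pileup of 23 fragments and 1 row. The nearest WT peak was 53922 bp away. This was the strongest of the 7 gained peaks, yet 34.9% of cKO peaks had a lower fold. The RefSeq promoter of *Cldn11* (GRCm38.p6, chr3:31149670-31149969, forward strand, 5′ to 3′) is printed because all but its first bases lie under the gained peak. Capitals mark its 24 CG dinucleotides, more than in 80.02% of the 32851 RefSeq promoters of the same length, whose median is 7.

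Cldn11 promoter: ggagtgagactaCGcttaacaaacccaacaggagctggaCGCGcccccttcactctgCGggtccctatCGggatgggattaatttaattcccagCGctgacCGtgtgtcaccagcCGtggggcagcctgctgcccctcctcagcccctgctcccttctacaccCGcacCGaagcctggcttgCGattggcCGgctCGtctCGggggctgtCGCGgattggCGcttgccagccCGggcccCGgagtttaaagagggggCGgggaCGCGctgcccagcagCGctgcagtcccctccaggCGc

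Among the Leydig genes, *Nr5a1* encodes steroidogenic factor 1, a nuclear receptor that switches on the genes of steroid synthesis and is also used by Sertoli cells. It lies on the reverse strand at chr2:38692656-38714542 and had 2 WT and 5 cKO peaks. At its 5′-most start the WT peak chr2:38714137-38714557 was 421 bp wide, with a fold of 3.0, a pileup of 15 fragments and 1 row. The cKO peak there, chr2:38713371-38714857, was 1487 bp wide, with a fold of 3.44, a pileup of 20 fragments and 4 rows. Both covered the start and were common.

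An internal *Nr5a1* start, beside the start of the antisense gene *Nr5a1os*, held the other common pair. Its WT peak at chr2:38712163-38712370 was 208 bp wide, with a fold of 3.38, a pileup of 17 fragments and 1 row. The cKO peak at chr2:38711588-38712740 was 1153 bp wide, with a fold of 5.89, a pileup of 35 fragments and 3 rows, and it covered the *Nr5a1os* start. It was stronger than 58.3% of cKO peaks. This region is CpG-rich, with a CpG observed/expected of 0.92 in the WT peak and 0.84 in the cKO peak.

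The remaining 3 *Nr5a1* peaks were gained. The first, at a further internal start (chr2:38710463-38711311), was 849 bp wide, with a fold of 3.44, a pileup of 20 fragments and 3 rows, and lay 851 bp from a WT peak. Upstream of the gene, chr2:38718934-38719213 was 280 bp wide, with a fold of 2.95, a pileup of 17 fragments and 1 row. Beside it, chr2:38719490-38719781 was 292 bp wide, with a fold of 3.11, a pileup of 18 fragments and 3 rows, and only 53 bp of it fell inside the window. The gained peaks thus stood on either side of the *Nr5a1* start, and the 2 upstream ones had few CG dinucleotides. The first upstream peak is printed, on the strand of the gene (mm10, reverse strand, 5′ to 3′), as an example of a gained peak away from a start. Capitals mark its 2 CG dinucleotides, and it holds a run of alternating T and G.

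Nr5a1 upstream cKO peak: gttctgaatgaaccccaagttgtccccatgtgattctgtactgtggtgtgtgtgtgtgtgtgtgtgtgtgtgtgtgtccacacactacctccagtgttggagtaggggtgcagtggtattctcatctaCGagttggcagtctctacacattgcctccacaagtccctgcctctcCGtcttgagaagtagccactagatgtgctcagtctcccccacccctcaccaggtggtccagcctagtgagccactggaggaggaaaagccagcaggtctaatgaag

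*Star* encodes the protein that carries cholesterol into mitochondria, the first step of steroid synthesis, and lies on the forward strand at chr8:25806555-25815982. It was the most densely occupied Leydig gene in the WT list, with 5 WT peaks, and it had 4 cKO peaks. At the 5′-most start the WT peak chr8:25806241-25806900 was 660 bp wide, with a fold of 3.75, a pileup of 19 fragments and 2 rows. The cKO peak chr8:25805953-25806900 was 948 bp wide, with a fold of 4.75, a pileup of 28 fragments and 3 rows. The start was therefore listed as accessible in both genotypes.

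Towards the 3′ end of *Star*, the single cKO peak chr8:25812722-25814001 overlapped 2 WT peaks. It was 1280 bp wide, with a fold of 4.09, a pileup of 24 fragments and 3 rows, and 96.0% of it was exonic. The WT peak chr8:25812473-25812812 was 340 bp wide, with a fold of 3.0, a pileup of 15 fragments and 2 rows. Its neighbor, chr8:25813085-25813313, was 229 bp wide and wholly exonic, with a fold of 3.56, a pileup of 18 fragments and 1 row.

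The other *Star* peaks differed between the lists. Those lost were chr8:25807377-25807540, 164 bp wide with a fold of 3.0 and a pileup of 15 fragments, and chr8:25809517-25809855, 339 bp wide with a fold of 3.75 and a pileup of 19 fragments. Both were centred in introns and on 1 row, and the nearest cKO peaks were 476 bp and 1457 bp away. Those gained were chr8:25811313-25812401, 1089 bp wide with a fold of 3.11 and a pileup of 18 fragments, and chr8:25814796-25815484, 689 bp wide with a fold of 3.44 and a pileup of 20 fragments. Both were centred in exons and on 3 rows, and the first lay 71 bp from a WT peak. The WT peaks thus ended before the last part of *Star*, while the cKO list had no peak between the one at the start and the first gained one. The first lost peak is printed (mm10, forward strand, 5′ to 3′) as the narrowest of the 22 peaks, and it holds no CG dinucleotide.

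Star lost WT peak: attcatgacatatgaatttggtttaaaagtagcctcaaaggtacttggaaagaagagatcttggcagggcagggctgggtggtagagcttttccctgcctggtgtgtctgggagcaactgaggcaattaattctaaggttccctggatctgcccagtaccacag

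The other 3 Leydig genes had no peak in either list. *Cyp11a1*, the mitochondrial enzyme that cuts the cholesterol side chain, lies on the forward strand at chr9:58006411-58027023. Its nearest peaks were 65555 bp upstream in WT, at the promoter of *Sema7a*, and 14740 bp downstream in cKO, at that of *Ccdc33*. *Cyp17a1*, the hydroxylase and lyase that makes androgens from pregnenolone and progesterone, lies on the reverse strand at chr19:46667165-46673172. The nearest peaks were 16491 bp upstream in WT, with a fold of 9.0, and 16178 bp upstream in cKO, with a fold of 10.3, both at the promoter of *Borcs7*. *Insl3*, the hormone that guides testis descent, lies on the forward strand at chr8:71689214-71690575, within *Jak3*. Its nearest peaks were 17358 bp upstream in WT, at the promoter of *Unc13a*, and 12505 bp upstream in cKO, at that of *Jak3*. The enzyme genes that commit cholesterol to androgens thus had no listed peak in their windows.

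Read over the whole set, the Sertoli genes held 3 WT peaks, of which 2 were lost, and 3 cKO peaks, of which 2 were gained. The Leydig genes held 7 WT peaks, of which 2 were lost, and 9 cKO peaks, of which 5 were gained, all of them at *Star* and *Nr5a1*. In all, 4 of 10 WT peaks were lost, beside 4.75% of the whole WT list, and 7 of 12 cKO peaks were gained, beside 43.5% of the whole cKO list. In the whole lists, weak peaks were lost or gained more often. Among WT peaks below the list's median fold 9.70% were lost, and 4 of the 9 marker peaks in that range were. Among cKO peaks below their list's median fold 76.9% were gained, and 7 of the 10 marker peaks in that range were. The 4 lost marker peaks lay at only 3 genes. At the level of genes, 4 of the 10 had a gained peak (*Wt1*, *Cldn11*, *Star* and *Nr5a1*) beside 26.9% of autosomal protein-coding genes, and 3 had a lost peak (*Amh*, *Gata4* and *Star*) beside 2.61%.

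**Figure D2:**
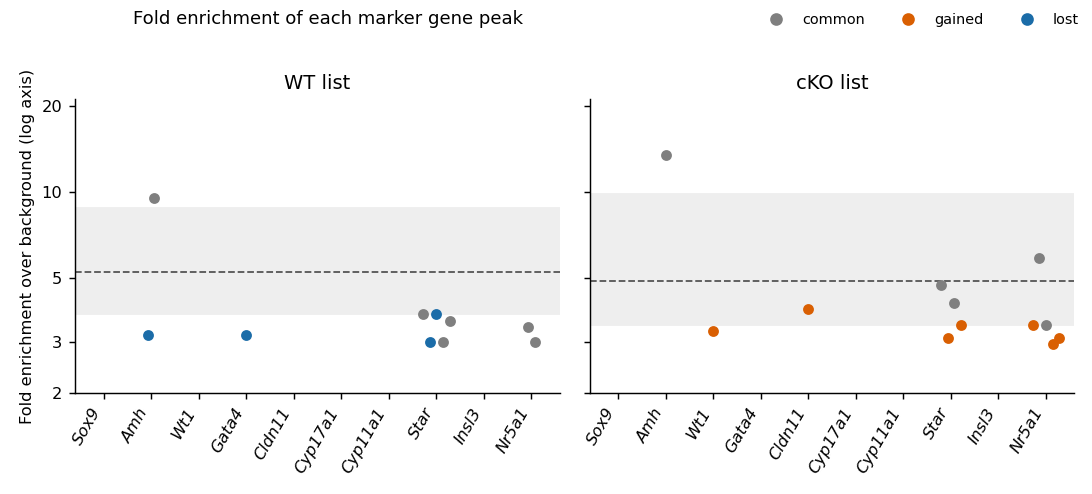
Fold enrichment (log axis) of each marker gene peak in the WT list (left) and the cKO list (right), with a point per peak, colored as common, gained or lost. The dashed line is the median of all peaks of the list, 5.25 in WT and 4.91 in cKO, and the grey band spans its quartiles, and only the broad *Amh* peak stands above the band in either list.

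Rows per peak, a rough measure of overlap between replicates, differed between the lists at these genes. Only 1 of the 10 WT peaks, the broad *Amh* peak, was on 3 or more rows, beside 74.5% of all WT peaks, and 6 were on 1 row, beside 10.9%. In the cKO list 9 of the 12 were on 3 or more rows, beside 80.2%, and 2 were on 1 row, beside 8.21%. All 4 lost peaks were on fewer than 3 rows, and 4 of the 7 gained peaks were on 3. The same shares over all lost and all gained peaks were not taken, so this difference cannot be read as particular to these genes. The median fold of the marker peaks was 3.28 in WT and 3.44 in cKO, and their median width was 380 bp and 898.5 bp, beside 824 bp and 925 bp for all peaks. The marker peaks covered 5630 bp of the windows in WT and 11984 bp in cKO, 2.13 times as much, while the whole lists covered 19.9 Mb and 37.8 Mb, 1.90 times as much. Coverage of the *Star* window went from 12.0% in WT to 27.8% in cKO, and that of the *Nr5a1* window from 2.34% to 14.2%.

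The folds of the common peaks are set side by side here, although each list's folds refer to a different library. For the 6 common WT peaks the fold of the cKO peak over them was 1.14 to 1.74 times the WT fold, highest at the internal start of *Nr5a1* and lowest at its 5′-most start. The ratio was 1.40 for the broad *Amh* peak and 1.26 for the *Star* start. Over 17479 autosomal common WT peaks the median ratio was 1.49, with quartiles of 1.25 and 1.73. Higher cKO folds were thus the rule across the lists, and 5 of the 6 marker peaks lay below the median ratio. All but the *Amh* peak were weak, and over the 4033 autosomal common peaks with a WT fold of at most 3.8 the median ratio was 1.39, with quartiles of 1.13 and 1.74. Of the 5 marker peaks in that range 4 lay below that median, and all lay within or at those quartiles. A weak peak can stand for a few fully open cells or for many slightly open ones, and these cannot be told apart in pooled cells.

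At promoters, 4 of the 10 genes had a WT peak and 5 a cKO peak, beside 51.1% and 57.6% of autosomal protein-coding genes. *Amh*, *Star* and *Nr5a1* had a promoter peak in both lists. *Wt1* and *Cldn11* had one in the cKO list alone, as did 6.74% of autosomal genes, and *Gata4* had one in the WT list alone, as did 0.279%. Promoter sequence class was compared because CpG-rich promoters are open in many cell types. By the class limit of 0.6 CpG observed/expected around the 5′-most start, *Sox9* (0.80) and *Wt1* (0.66) had CpG-rich promoters, and *Cldn11* and *Insl3* (both 0.59) fell just under it. *Sox9* had no peak, and *Wt1* had its cKO peak. Of the 8 genes classed as CpG-poor, *Cldn11* and *Insl3* included, 4 had a WT promoter peak and 4 a cKO promoter peak, beside 25.1% and 32.3% of the 11296 CpG-poor genes. The class describes the 5′-most start alone, and the *Gata4* peak and several *Nr5a1* peaks lay at internal starts that were themselves rich in CpG. The *Star* peaks were low in CpG, between 0 and 0.39 observed/expected, and both internal starts of *Nr5a1* were above 0.8.

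**Figure D3:**
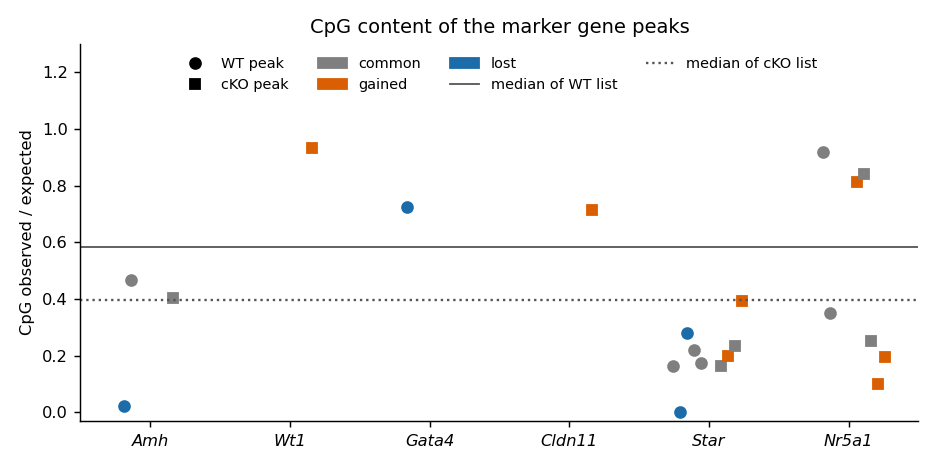
CpG observed/expected ratio of each marker gene peak, with circles for WT peaks and squares for cKO peaks, colored as common, gained or lost. The solid line is the median of the WT list (0.58) and the dotted line that of the cKO list (0.40). The peaks of *Wt1*, *Gata4*, *Cldn11* and the internal starts of *Nr5a1* lie above both lines, and all *Star* peaks lie below the lower line, the highest of them almost on it.

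The labelled cell type was checked with 20 genes of pachytene germ cells. All 20 had a promoter peak in both lists, with folds of 4.88 to 23.3 and a median of 14.4 in WT, and of 9.0 to 33.9 and a median of 22.01 in cKO. The promoter peaks of the somatic genes were weaker. The highest promoter fold of each gene was 3.19 to 3.75 in WT and 3.27 to 13.4 in cKO. Without *Amh* none of these folds was above 5.89. Promoter class differed too, as 13 of the 20 germ cell genes but 2 of the 10 markers were CpG-rich. The median promoter fold of autosomal CpG-rich genes was 9.57 in WT and 14.7 in cKO. For CpG-poor genes it was 6.57 and 8.18. All marker promoter folds in WT, and all but that of *Amh* in cKO, lay below the CpG-poor median as well. For *Amh* this rests on the edge of the promoter. Its broad WT peak, with a fold of 9.57, began 200 bp downstream of the start and so was not counted as a promoter peak. That fold was above the CpG-poor median. The cKO peak that overlapped it covered the start and was counted.

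Further markers of the same cells were counted next. Of 22 further Sertoli genes 7 had a WT and 11 a cKO promoter peak, and of 18 further Leydig genes 8 and 9 had them, beside the 51.1% and 57.6% of all autosomal protein-coding genes. Their median promoter fold was 5.25 in WT and 6.46 in cKO. The strongest Sertoli promoter peaks were those of *Etv5*, a transcription factor gene, with a fold of 17.8 in WT and 29.8 in cKO. *Fgf9*, a growth factor gene of gonadal sex determination, had 6.75 and 9.16. In the WT list the 3 highest Leydig promoter folds were those of *Cyp51*, a cholesterol synthesis enzyme (8.82), *Fdx1*, an electron carrier gene of steroid synthesis (7.69), and *Nr2f2*, a nuclear receptor gene of Leydig progenitors (7.50). In the cKO list they were those of *Cyp51* (14.9), *Fdx1* (14.4) and *Fdxr*, the reductase gene that serves *Fdx1* (12.9). *Etv5*, *Cyp51*, *Fdx1* and *Fdxr* had CpG-rich promoters, the class with peaks at most genes, while *Fgf9* and *Nr2f2* had CpG-poor ones. A WT promoter peak was found at 5 of 5 CpG-rich and 3 of 13 CpG-poor further Leydig genes. For the further Sertoli genes the counts were 4 of 9 and 3 of 13. In their windows 18 of these 40 genes had a WT peak and 27 a cKO peak. The shares of all autosomal protein-coding genes were 58.1% and 66.0%. No peak at all was listed in the windows of 13 of the 40 genes, a count for which no share of all genes was taken. Among them, named after their values were seen, were *Fshr*, the receptor for follicle-stimulating hormone on Sertoli cells, and *Hsd17b3*, the testis enzyme that completes testosterone synthesis.

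Promoter peaks in the cKO list alone were found at 6 of these 40 genes, beside 6.74% of all autosomal protein-coding genes. They were *Vim* (fold 4.58), an intermediate filament gene, *Gja1* (3.11), the gap junction gene of connexin 43, *Ocln* (3.11), a tight junction gene, *Clu* (3.27), a secreted chaperone gene, *Aard* (5.24) and *Gli1* (3.27), a hedgehog effector gene. The *Aard* peak overlapped a WT peak outside the promoter and so was not gained. *Scarb1*, a lipoprotein receptor gene, and *Dlk1*, a progenitor marker, had gained promoter peaks beside common ones. *Sox8*, a relative of *Sox9*, had the single promoter peak found in the WT list alone, with a fold of 3.56. With the 10 genes above, junction genes *Cldn11*, *Ocln* and *Gja1* each had a promoter peak in cKO alone, on folds below the cKO median.

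Markers of other cells that the fraction could hold were counted in the same way. Peritubular myoid markers had a promoter peak at 3 of 10 genes in WT and 4 in cKO, endothelial markers at 0 of 10 and 2, and macrophage markers at 0 of 10 and 2. Of 19 genes of tissues outside the testis, 2 had a WT promoter peak and 3 a cKO promoter peak. Each of these lists had more genes with a cKO than with a WT promoter peak, as did all autosomal genes. The part of somatic cells in the marker peaks was not tested.

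**Figure D4:**
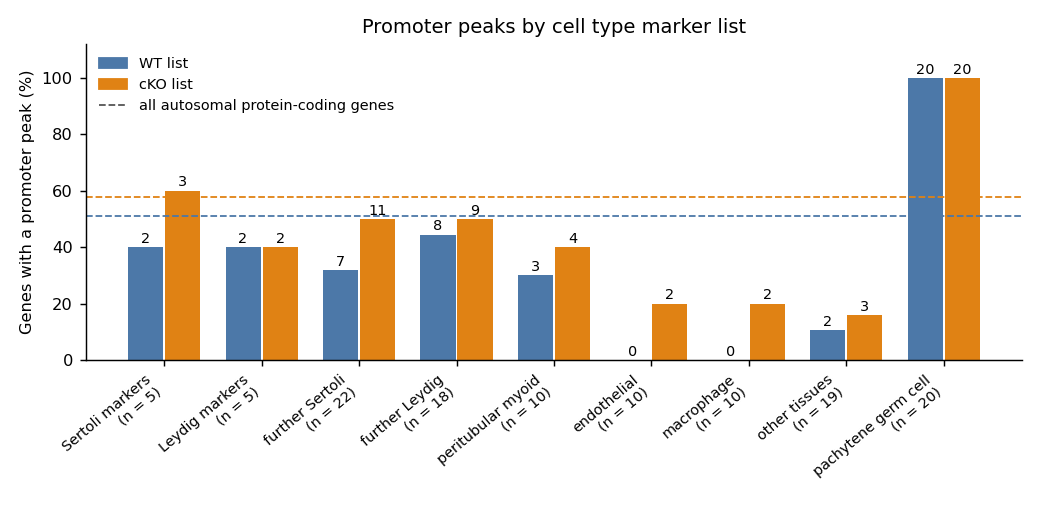
Percentage of the genes of each marker list with a promoter peak in the WT list (blue) and the cKO list (orange), with the number of genes above each bar. Dashed lines give all autosomal protein-coding genes, 51.1% in WT and 57.6% in cKO, and the pachytene list stands at 20 of 20 genes in both, while the somatic and other lists lie between 0 of 10 and 3 of 5 genes.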

How the data were processed

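Per the labels and the study's methods, the authors prepared Omni-ATAC libraries in quadruplicate, trimmed reads with Trim Galore, aligned them to mm10 with Bowtie2, and removed PCR duplicates (Picard) and mitochondrial reads (SAMtools). No mapping-quality filter was stated. Peaks were called by the authors for every library with MACS2, whose local background was switched off. Blacklisted regions were filtered out, and the replicate calls of a genotype were intersected. In the deposited lists, the fold enrichment is a linear ratio of summit pileup to background, and the deposited −log10 q scores it against that background, adjusted by MACS2. The library that supplied the values, and the depth of the others, are not given in the sources used here.

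Rows were collapsed by peak name, from the first to the last base they covered (Python 3.11.15, pandas 2.3.3, numpy 2.4.6). Backgrounds and summit pileups were recovered from the grid of fold values, and all peaks gave a whole pileup within 0.05 fragments. Genes were those of GENCODE vM21. A promoter was CpG-rich when the 500 bp on either side of the 5′-most start had a CpG observed/expected of at least 0.6 and a GC content of at least 50%. A peak's 50-mers, taken at steps of 25 bp, were counted as unique where they occurred once in the genome. RefSeq promoters were found for 3 of the 10 genes. Interval operations were tested on simulated data.

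The genes and marker lists were chosen with earlier results of these data known. The text names the 10 genes with every peak, the 3 further Sertoli and Leydig genes with the highest promoter fold in each list (1 of them is not reported here), those with a gained or lost promoter peak, and neighbors whose start or promoter a peak overlapped. Backgrounds are shares of the 20807 autosomal protein-coding genes. Their 95% Wilson intervals were within 1 percentage point and cover counting error only. No test between genotypes was made. The comparisons with peaks below the median fold, or with a WT fold of at most 3.8, were added after seeing the data. Alternatives covered peak definition, threshold, rows, list length, overlap, window, promoter and background genes.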

Additional observations from a re-analysis of the deposited data

How the results depend on the processing

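Of 88 values recomputed under 14 settings, 58 kept to within 1.5 times the reported count, or to within the 95% interval of a share, and 30 did not. *Sox9*, *Cyp17a1*, *Cyp11a1* and *Insl3* had no peak under any setting run. Counting each row as a peak gave 31 cKO peaks, 16 of them gained. At a −log10 q of at least 5, 2 genes had a WT peak and 1 a WT promoter peak, with 3 WT peaks (1 lost) and 5 cKO peaks (1 gained). At a −log10 q of at least 10, 1 gene had a WT peak and 3 had a cKO peak, with 1 WT peak and 3 cKO peaks, 0 lost and 0 gained, and promoter peaks at 0 and 3 genes, respectively. For peaks on 3 or more rows, 1 gene had a WT peak and 3 had a cKO peak, with 1 WT peak, 0 lost and 4 gained peaks, and promoter peaks at 0 and 3 genes. With the weakest cKO peaks left out to equal list lengths, 5 cKO peaks were left and 1 was gained, that of *Cldn11*. It was tied at the lowest −log10 q kept (6.71) with 969 others, and only 604 of these 970 were kept. Its place therefore rests on how ties were broken. Under this setting 5 WT peaks were lost in place of 4, with 1 of them at *Nr5a1*. These settings leave fewer peaks by construction. With genes of all chromosomes as background, the shares were 56.5% (WT peak), 65.0% (cKO peak), 49.7% (WT promoter peak), 56.7% (cKO promoter peak) and 7.31% (promoter peak in cKO alone). No paired analysis was possible because each genotype is represented by 1 list and no column carries a replicate number, and for the same reason no library could be left out.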
